A study of Mus musculus with 16 samples.

Results

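CHIP, the product of Stub1, is a ubiquitin ligase that works with cytosolic chaperones, and the arrays described here compare ventricles of mice with and without it when no pressure load was placed on the heart. The comparison holds 8 of the 16 arrays of the study: 4 from wild-type and 4 from CHIP-/- 129Sv mice, all taken 1 week after a sham operation and chosen by their labelled genotype and surgery. The other 8 arrays, 4 per genotype, came from mice of the same strain 1 week after TAB. TAB is trans-aortic banding, which narrows the aorta and loads the ventricle. These arrays are used to ask whether a genotype difference seen after sham was seen in other animals. They also enter the filter, the choice of probe and the estimate of spread used to test the sham difference. Each array set heart ventricle RNA, labelled with Cy5, against RNA pooled from whole neonatal mice of mixed 129Sv and C57BL/6 background, labelled with Cy3. Values are log2 ratios of heart over that reference, so they compare groups for 1 gene and do not rank genes against each other. The labels call the 4 samples of a group biological replicates, give no age or sex of the animals, and do not describe how the Stub1 allele was disrupted.

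CHIP binds the tails of Hsp70 and Hsp90 through its tetratricopeptide repeats and, with an E2 enzyme held by its U-box, attaches ubiquitin to their unfolded clients, which are then degraded by the proteasome. It also binds the heat shock factor HSF1, which turns on chaperone genes when unfolded protein accumulates. The heart is a tissue of high protein turnover and high mechanical load, and its stress genes include the natriuretic peptides, fetal contractile genes and matrix genes.

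In the heart channel 34.4% to 37.7% of spots on the wild-type sham arrays and 32.8% to 35.5% on the CHIP-/- sham arrays were well above background. In the reference channel, which carried the same RNA on all arrays, the shares were 61.2% to 62.3% and 56.6% to 59.2%. Between 55 and 459 spots were marked as outliers on each CHIP-/- sham array, against 4 to 7 on each wild-type sham array, and each group lay on a slide of its own, so slide and genotype cannot be told apart. Compared between these slides, the reference signal itself differed for 299 of 11058 features, or 2.7%, of which 274 were lower on the CHIP-/- slide. Of 155 genes examined singly, the reference signal of Acadsb, an enzyme of branched-chain amino acid breakdown, was among these. The Y-linked genes Ddx3y and Eif2s3y gave signal well above background on wild-type replicate 4 and CHIP-/- replicates 2 and 4, where Xist read -3.27 to -3.20 against -0.40 to 0.00 on the other 5 arrays, so both sexes were present, in unequal numbers in the groups. Atrial Myl7 was high on wild-type replicates 1 and 3 and CHIP-/- replicate 1. Across features, arrays correlated at 0.974 to 0.981 within the wild-type group, 0.977 to 0.982 within the CHIP-/- group and 0.969 to 0.980 between them.

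Stub1 itself had the smallest adjusted p of all features. Its log2 ratio was 0.30, 0.37, 0.39 and 0.44 in the wild-type sham hearts and -1.36, -1.31, -1.39 and -1.24 in the CHIP-/- sham hearts. The groups did not overlap, and the means were 0.38 ± 0.06 and -1.32 ± 0.06 (SD, n = 4 each). Stub1 transcript fell by 1.70 on the log2 scale (SE 0.10, 95% interval -1.90 to -1.50, adjusted p = 1.9e-10), which is 3.25-fold lower. Adjusted p-values come from limma and were corrected by Benjamini and Hochberg's method across the 11058 features, and a gene is said to rise or fall where that value is below 0.05. The probe stayed well above background on all 4 CHIP-/- arrays, and the sources used here do not say whether it lies inside the disrupted part. Stub1 lies on chromosome 17. Among the 10 measured genes on each side of it, 0 of 20 passed the threshold in limma's test, their differences ran from -0.24 to 0.29, 1 had an unadjusted p below 0.05, and 1 of them, Nme4, did not overlap between the groups.

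Few features beyond Stub1 passed the threshold after sham. Of 11058 features, 3 passed the threshold, or 0.0271%: 1 was higher, or 0.00904%, and 2, Stub1 included, were lower, or 0.0181%, in CHIP-/- hearts. Over all features 46.3% of differences were above 0 and 53.7% below. At an unadjusted p below 0.05 there were 889 features, or 8.04%, of which 316 (2.86% of all) were higher and 573 (5.18%) lower. Counts at this level within gene lists are to be read beside these shares. The 4 arrays of one genotype did not overlap with the 4 of the other for 594 features, or 5.37%, of which 246 were higher and 348 lower. The median standard error of a difference was 0.09, the 95% interval lay between -1 and 1 for 99.8% of features, and for 96.6% it lay between -0.5 and 0.5. A difference of at least 0.5 in size was measured for 45 features, 8 higher and 37 lower. Differences well below 0.5 were mostly not detectable with this number of arrays. The number passing the threshold also depended on the model: it was 42 when only the 8 sham arrays were fitted and 41 with array weights, 25 of them shared, and 1 to 12 when 1 array was left out (1 without wild-type replicate 2 or CHIP-/- replicates 1, 2 or 3, 7 without wild-type replicate 1, 12 without wild-type replicate 3 and 10 without CHIP-/- replicate 4).

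The gene that fell besides Stub1 was Nppb, which encodes brain natriuretic peptide, a hormone that ventricular muscle releases under wall stress. Its log2 ratio was 3.91, 4.60, 4.07 and 4.71 in wild-type sham hearts and 3.36, 3.34, 2.93 and 3.76 in CHIP-/- sham hearts. Every CHIP-/- array was below every wild-type array, and Nppb fell by 0.98 (SE 0.16, 95% interval -1.32 to -0.64, adjusted p = 0.019), or 1.97-fold. A further Nppb probe gave -1.12 (SE 0.23). Leaving out 1 array at a time kept the sign, but the adjusted p was 0.11 without wild-type replicate 2, 0.053 without wild-type replicate 4, and 0.092, 0.095 and 0.16 without CHIP-/- replicates 1, 2 and 3.

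The gene that rose was Ly6a, which encodes Sca-1, a surface protein of endothelial and progenitor cells whose gene responds to interferon. Its log2 ratio was 2.00, 1.83, 1.78 and 1.67 in wild-type sham hearts and 2.21, 2.21, 2.29 and 2.21 in CHIP-/- sham hearts. The groups did not overlap, and the CHIP-/- arrays lay close together. Ly6a rose by 0.41 (SE 0.07, 95% interval 0.27 to 0.55, adjusted p = 0.019), or 1.33-fold. Without 1 array the adjusted p was 0.065 for wild-type replicate 2, 0.053 for wild-type replicate 4, and 0.085, 0.086 and 0.16 for CHIP-/- replicates 1, 2 and 3.

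**Figure D1:**
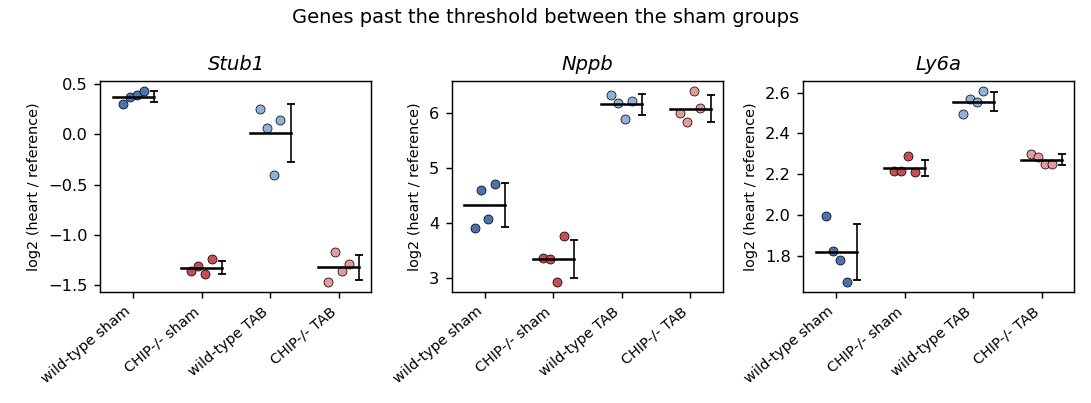
Log2 ratio of heart over reference for Stub1, Nppb and Ly6a, with 1 point per array, the group mean as a line and its SD as a bar (n = 4 per group). Stub1 was low in both CHIP-/- groups, while after sham Nppb was lower and Ly6a higher in CHIP-/- hearts, with no overlap in either.

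Heat shock genes lay lower in CHIP-/- than in wild-type sham hearts in the median, the largest differences came with high values in 2 wild-type hearts, and 0 chaperone genes passed limma's adjusted threshold, where 18 were lower at an unadjusted p below 0.05. Promoter bases of 2 heat shock genes and 2 interferon genes are shown because they belong to the lists whose medians are described next, below 0 for heat shock genes and above 0 for interferon genes. They are the 250 bases before the start of transcription, from RefSeq on GRCm38.p6, written 5′ to 3′. Capitals mark the heat shock element core GAANNTTC in Hspa1a and Hspb1, and, in Ifit3 and B2m, an interferon-stimulated response element, searched on both strands as GAAA, any 2 bases and GAAA.
Hspa1a, chr17:34972157-34972406, minus strand: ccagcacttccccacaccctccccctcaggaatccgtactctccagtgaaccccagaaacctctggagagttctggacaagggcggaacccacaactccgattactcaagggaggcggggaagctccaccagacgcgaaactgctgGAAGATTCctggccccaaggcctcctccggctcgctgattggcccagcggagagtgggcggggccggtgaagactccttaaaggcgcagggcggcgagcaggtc
Hspb1, chr5:135887669-135887918, plus strand: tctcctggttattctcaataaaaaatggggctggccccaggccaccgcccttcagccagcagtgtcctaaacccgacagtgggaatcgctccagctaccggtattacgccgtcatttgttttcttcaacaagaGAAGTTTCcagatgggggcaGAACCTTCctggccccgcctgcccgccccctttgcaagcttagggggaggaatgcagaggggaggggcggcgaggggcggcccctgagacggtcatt
Ifit3, chr19:34583279-34583528, plus strand: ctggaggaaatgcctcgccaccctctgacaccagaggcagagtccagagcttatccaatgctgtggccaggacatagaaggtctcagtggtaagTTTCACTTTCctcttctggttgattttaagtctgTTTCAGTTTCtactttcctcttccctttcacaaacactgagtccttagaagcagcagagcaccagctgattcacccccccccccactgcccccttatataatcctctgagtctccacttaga
B2m, chr2:122147437-122147686, plus strand: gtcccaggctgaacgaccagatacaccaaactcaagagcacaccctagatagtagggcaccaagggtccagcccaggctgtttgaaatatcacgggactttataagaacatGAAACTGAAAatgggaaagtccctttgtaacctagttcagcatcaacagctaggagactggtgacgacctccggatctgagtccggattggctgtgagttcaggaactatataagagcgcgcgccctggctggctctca
The core GAANNTTC, searched on both strands, was in 7 of 43 chaperone promoters in the sequence table, or 16.3%, against 4.87% of the promoters of tested features and 6.78% of all 27025. It lay 104 bases before the start in Hspa1a and 117 and 97 bases before it in Hspb1, counted to its first base. A match of letters is a description of the promoter and not a measured binding site. The list takes in HSF1 targets by choice, so a raised share of this core was built into it and is no support for a change.

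Hspa1a, which encodes inducible Hsp70, read -0.34, 1.96, -1.31 and 2.61 in wild-type sham hearts and -1.52, -1.35, -1.70 and -1.24 in CHIP-/- sham hearts. Wild-type replicates 2 and 4 stood far above all other arrays, replicate 1 lay between them and the CHIP-/- arrays, and replicate 3 lay within the CHIP-/- range. The difference was -2.18 (SE 0.57, adjusted p = 0.16). Hspa1a has a near-identical neighbour, Hspa1b, and its probes may read both, and the 2 other kept probes gave -2.03 and -1.24. Dnajb1, the Hsp40 that hands clients to Hsp70, read -0.07, 0.41, -0.62 and 0.92 in wild type and -0.83, -0.87, -1.34 and -0.71 in CHIP-/- hearts. Its groups did not overlap, and its difference was -1.10 (SE 0.24, adjusted p = 0.10), against -0.34 for a second probe. Hsph1, a nucleotide exchange factor of Hsp70, read 0.96, 1.91, 0.78 and 1.73 against 0.42, 0.66, 0.36 and 0.62, a difference of -0.83 (adjusted p = 0.17). Hsp90aa1, inducible Hsp90, read -0.79, -0.14, -0.91 and -0.10 against -1.0, -0.93, -1.17 and -0.94, a difference of -0.53 (adjusted p = 0.14). The same 2 wild-type arrays were the highest for all 4 genes.

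Of 52 measured chaperones and HSF1 targets, 38 were below 0 and 14 above, with a median difference of -0.12 against -0.01 over all features. At an unadjusted p below 0.05, 18 were lower and 0 higher, where 5.18% of all features were lower. Leaving out wild-type replicate 2 left 10 of these, and leaving out wild-type replicates 2 and 4 together left 4, with a median of -0.09 and 43 of 52 below 0. Without CHIP-/- replicates 1 and 3, the arrays with the most outlier-marked spots, 6 were at that level and the median was -0.10. Other choices brought members past limma's adjusted threshold. Dnajb1 passed with only the 8 sham arrays fitted (adjusted p = 0.042) and with array weights (0.042). Without wild-type replicate 3, Hspa1a (0.016), Dnajb1 (0.015) and Hsp90aa1 (0.02) passed. These and Hsph1 and Hspb1 passed without the 3 arrays with high Myl7, and Hspa1a, Dnajb1 and Hsph1 with median centring. Small heat shock genes were part of the group: Hspb3 differed by -0.37 (adjusted p = 0.16) and Hspb1 by -0.37 (adjusted p = 0.24). The co-chaperone Bag1 differed by 0.02.

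**Figure D2:**
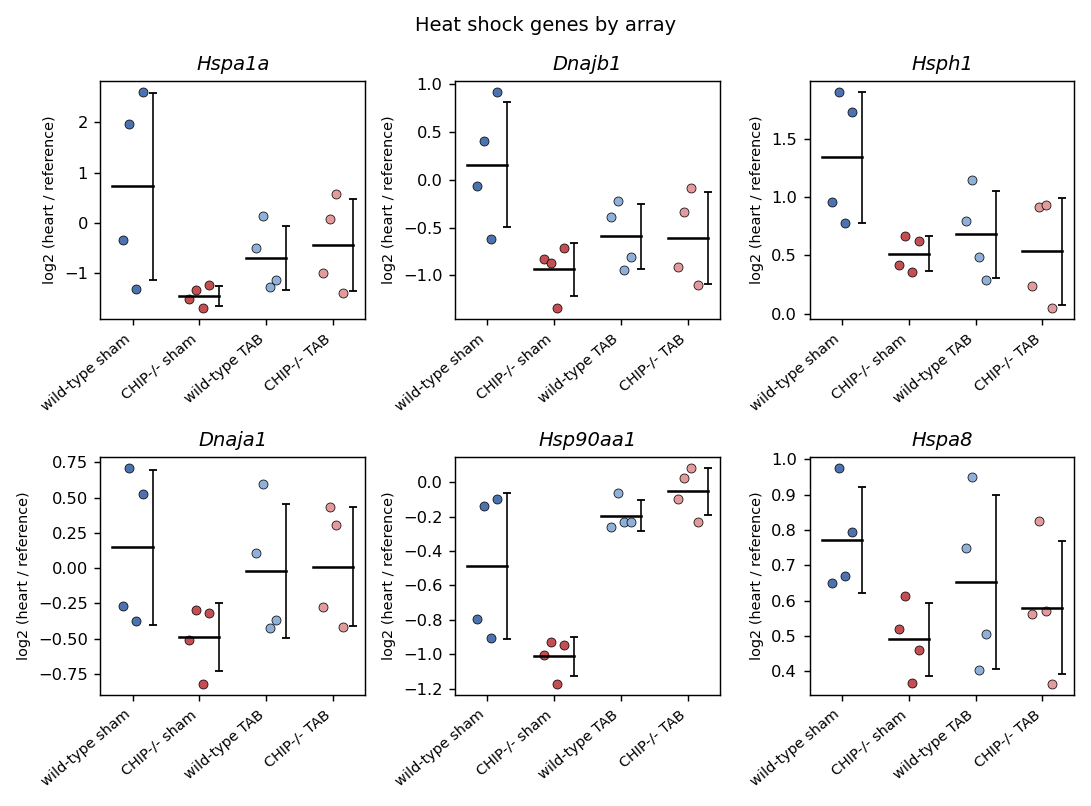
Log2 ratio of heart over reference for 6 heat shock genes, with 1 point per array, the group mean as a line and its SD as a bar (n = 4 per group). Wild-type sham replicates 2 and 4 lie at 1.96 and 2.61 for Hspa1a, while the 4 CHIP-/- sham arrays lie between -1.70 and -1.24.

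Among the proteins that work directly with CHIP, 24 transcripts were measured, and of the 23 other than Stub1 0 passed the threshold in limma's test, with 9 lower and 0 higher at an unadjusted p below 0.05, where 5.18% of all features were lower. Constitutive Hsc70, Hspa8, read 0.65, 0.98, 0.67 and 0.79 in wild type against 0.52, 0.61, 0.37 and 0.46 in CHIP-/- hearts, a difference of -0.28 (SE 0.10, adjusted p = 0.41) with no overlap. St13, the Hsc70-interacting protein Hip, differed by -0.19 with no overlap (adjusted p = 0.48), and 2 other St13 probes gave -0.06 and 0.12. Dnaja1 differed by -0.63 and Hsp90ab1 by -0.17, both with overlap. Dnajb2 differed by -0.14 and Hspa4 by -0.13. The Bag proteins release clients from Hsp70, and of them Bag3 differed by -0.17, while Bag1, Bag2 and Bag5 lay between -0.02 and 0.02. Hspbp1, a nucleotide exchange factor that restrains CHIP, differed by 0.03. The E2 enzymes Ube2d2a, Ube2d3, Ube2n, Ube2v1 and Ube2w lay between -0.11 and 0.08, Ube2e1 differed by -0.15 (adjusted p = 0.58), and the fellow U-box ligases Ube4a and Ube4b differed by -0.08 and 0.05. Atxn3, the deubiquitinase that trims chains built by CHIP, differed by 0.06. The signs of Ube2w, Ube2n, Ube4b, Atxn3, Bag5, Bag1, Hspbp1, Bag2 and Ube2d3 changed under at least 1 alternative processing.

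Interferon and antigen presentation genes stood higher in CHIP-/- sham hearts. These genes display peptides on MHC class I molecules and answer to a transcription complex that holds Stat2 and Irf9. Of 31 measured members 30 were above 0, with a median difference of 0.29 against -0.01 over all features, and 12 did not overlap between the groups, or 38.7%, where 2.22% of all features were higher without overlap. At an unadjusted p below 0.05, 18 were higher and 0 lower, where 2.86% of all features were higher. In the test over all features 1 member, Ly6a, passed. The mean over members was 0.23 to 0.38 on the wild-type arrays and 0.52 to 0.59 on the CHIP-/- arrays, so the groups did not overlap.

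H2-K1, a classical MHC class I heavy chain, read 0.06, 0.02, 0.03 and 0.39 in wild-type and 0.68, 0.54, 0.68 and 0.61 in CHIP-/- sham hearts. Its difference was 0.50 (SE 0.11, adjusted p = 0.099). Its 2 other probes gave 0.40 and 0.05, and because class I genes are close copies of each other that differ between strains, the gene each probe reads is uncertain. H2-D1 read -0.37, -0.48, -0.46 and -0.10 against -0.07, -0.02, 0.03 and -0.04, a difference of 0.33 (adjusted p = 0.22) without overlap. All 13 class I heavy chain genes measured were above 0, from 0.15 to 0.50, and 9 did not overlap, where 2.22% of all features were higher without overlap. The class I heavy chain genes lie on chromosome 17, as Stub1 does. Of 497 measured genes of that chromosome 30, or 6.04%, did not overlap, 18 higher and 12 lower, against 5.37% of all features. The part of this shared chromosome in the class I values was not tested. B2m, the light chain shared by all class I molecules, lies on another chromosome, 2, and read 0.47, 0.36, 0.39 and 0.72 against 0.94, 0.74, 0.91 and 0.78, a difference of 0.36 (adjusted p = 0.27), with 0.33 and 0.04 for its other probes.

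Among the regulators, Irf9 read 0.10, -0.02, -0.01 and -0.09 in wild type and 0.46, 0.53, 0.39 and 0.25 in CHIP-/- hearts, a difference of 0.41 (SE 0.09, adjusted p = 0.10). Stat2 read -0.39, -0.32, -0.22 and -0.21 against -0.11, 0.19, 0.19 and -0.03, a difference of 0.35 (adjusted p = 0.12). Both genes separated the genotypes without overlap. Jak1, the kinase of interferon receptors, differed by 0.25 (adjusted p = 0.10), against 0.08 for its second probe. Of the induced genes, Ifit3 read 0.43, 0.18, 0.53 and 0.08 against 0.78, 0.68, 0.83 and 0.55 and Ifit1 differed by 0.31, both without overlap. Ifitm1 differed by 0.40 and Oas2 by 0.49, and the Ifit1 and Oas2 probes were well above background on 1 wild-type array and on all 4 CHIP-/- arrays. The filter asked for 4 arrays, so CHIP-/- arrays alone could carry a gene through it. With probes well above background on all 8 sham arrays the interferon list held 25 members. Of these 24 were above 0, the median was 0.28, and 14 were higher at an unadjusted p below 0.05. The immunoproteasome subunits Psmb9 and Psmb8 differed by 0.28 and 0.25, with overlap.

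The interferon-stimulated response element was found in 12 of 24 of the group's promoters, or 50%, against 2.44% of promoters of tested features and 3.04% of all, which is a known feature of such genes. In Ifit3 it lay 156 and 122 bases before the start and in B2m 139 bases before it. Among promoters of the features that were higher without overlap, 9 of 179 held it, or 5.03%, against 5 of 238, or 2.1%, of those lower without overlap. The higher set includes members of the interferon list itself. The heat shock element core was in 11 of the 238 lower (4.62%) and 10 of the 179 higher (5.59%), near the 4.87% of tested features.

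Without wild-type replicates 2 and 4 the interferon median was 0.16, with 25 of 31 members above 0 and 11 at an unadjusted p below 0.05. Without CHIP-/- replicates 1 and 3 the median was 0.28, with 11 at that level. When limma was fitted to only the 8 sham arrays, 6 of 31 members passed the adjusted threshold, and with array weights 5 did. In the fit to the 8 sham arrays H2-K1 (adjusted p = 0.011), Irf9 (0.04) and B2m (0.049) passed. Without wild-type replicate 2 the count was 0.

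**Figure D3:**
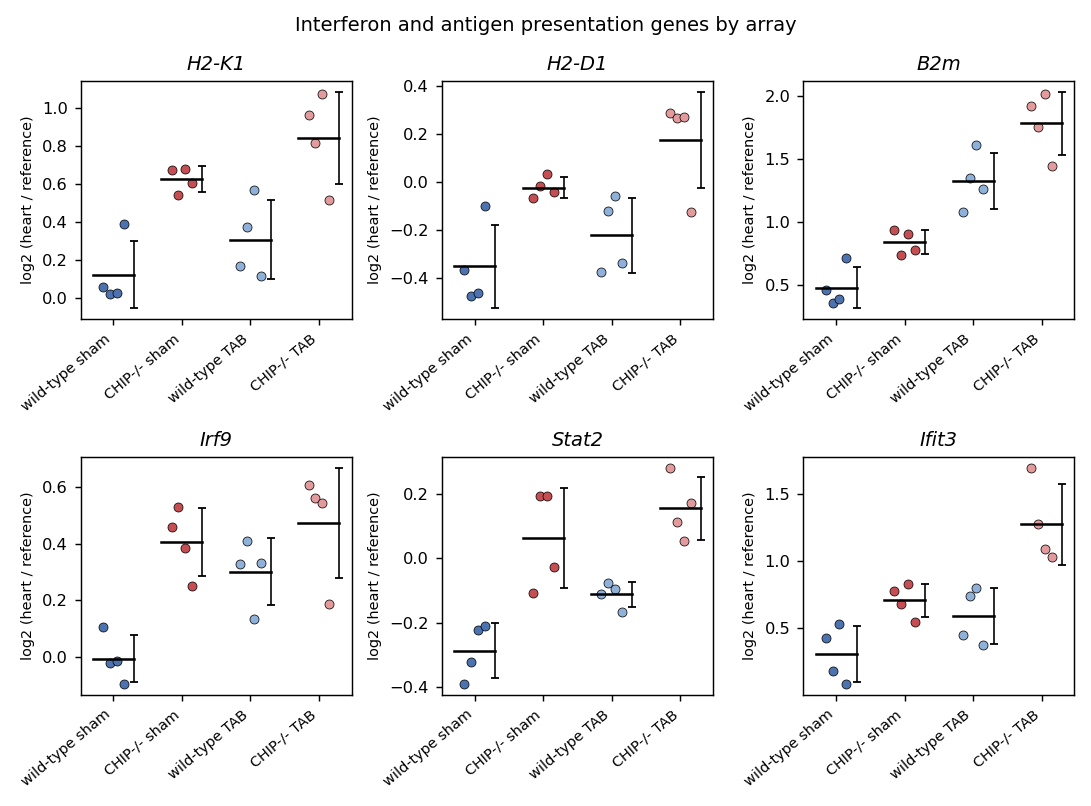
Log2 ratio of heart over reference for 6 genes of antigen presentation and interferon signalling, with 1 point per array, the group mean as a line and its SD as a bar (n = 4 per group). After sham, all 4 CHIP-/- arrays lie above all 4 wild-type arrays for each gene, for Irf9 at 0.25 to 0.53 against -0.09 to 0.10.

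Extracellular matrix genes stood lower in CHIP-/- sham hearts. Matrix is made mainly by cardiac fibroblasts, and in ventricle RNA fewer cells of a type and less RNA per cell cannot be told apart. Of 69 measured matrix genes 61 were below 0, with a median of -0.19, and 13 were lower without overlap, or 18.8%, where 3.15% of all features were. At an unadjusted p below 0.05, 27 were lower and 0 higher, where 5.18% of all features were lower and 2.86% higher, and 0 passed limma's adjusted threshold. Serpinh1, the collagen chaperone Hsp47, read -0.51, -0.19, -0.53 and -0.36 in wild type and -0.87, -0.83, -0.94 and -1.03 in CHIP-/- hearts, a difference of -0.52 (SE 0.11, adjusted p = 0.099). Col4a1, a basement membrane collagen, read -0.95, -0.70, -0.76 and -0.66 against -1.22, -1.45, -1.33 and -1.39, a difference of -0.58 (adjusted p = 0.16), and its second probe gave -0.33. Both separated the genotypes fully. Col5a3 and Col15a1 differed by -0.51 and -0.52, also without overlap. When limma was fitted to only the 8 sham arrays, 4 matrix genes passed. They were Col4a1 (adjusted p = 0.0012), Serpinh1 (0.0075), Col5a3 (0.032) and Col15a1 (0.04). With array weights 2 passed. Col3a1, a main fibrillar collagen, read -3.19, -3.04, -3.21 and -2.27 against -3.37, -3.85, -3.29 and -4.00, a difference of -0.70 (adjusted p = 0.30). Postn, a matrix protein of activated fibroblasts, was high on wild-type replicate 4 alone, at -1.75 against -3.52 to -3.43 on the other 3 wild-type arrays, and differed by -0.62 (adjusted p = 0.70).

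This group depended on which hearts were compared. The count at an unadjusted p below 0.05 was 17 without wild-type replicate 4, 17 without CHIP-/- replicate 2, and 10 without wild-type replicates 2 and 4. It was 5, with a median of -0.07, without the 3 arrays with Y-linked transcripts, and 31, with a median of -0.32, without the 3 arrays with high Myl7. Fibroblast markers stood lower too, with 13 of 16 below 0 and a median of -0.10, and of the defining ones Dcn differed by 0.07, Lum by -0.40 and Pdgfra by -0.04. The part of fibroblast number or of sex in the matrix values was not tested.

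Markers of hypertrophy, genes that ventricular muscle raises under load, leaned lower. Of 21 measured, 19 were below 0, the median was -0.19, and 1, Nppb, fell. At an unadjusted p below 0.05, 5 were lower and 0 higher, where 5.18% of all features were lower and 2.86% higher. Nppa, which encodes atrial natriuretic peptide, read 4.02, 3.76, 3.82 and 5.19 in wild type and 3.95, 3.27, 3.08 and 3.61 in CHIP-/- hearts, a difference of -0.72 (adjusted p = 0.31) with overlap. Acta1, skeletal actin, differed by -0.40 without overlap over the 7 arrays with a value (adjusted p = 0.25). Nmrk2, a kinase of nicotinamide riboside, read 1.89, 1.28, 1.23 and 2.40 against 0.90, 1.04, 0.54 and 1.35, a difference of -0.74 (adjusted p = 0.38). Ankrd23, a stretch-responsive protein of the titin spring, differed by -0.54 (adjusted p = 0.079) with a second probe at -0.50, and was named after its value was seen. Wild-type replicate 4 held the highest value of Nppb, Nppa, Nmrk2 and Ankrd23. Without wild-type replicate 4 the median of the hypertrophy group was -0.11 and Nppa differed by -0.39, and without wild-type replicates 2 and 4 the median was -0.09.

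Contractile and electrical genes lay near the median of all features. Of 26 sarcomere and Z-disc genes 17 were below 0, with a median of -0.04, and 0 passed limma's adjusted threshold, against 1 at an unadjusted p below 0.05. Flnc, a Z-disc filamin that is a client of chaperone-assisted autophagy through Bag3 and CHIP, differed by -0.18 without overlap (adjusted p = 0.58). Ttn, the titin spring, differed by -0.21 for its brightest probe, while its 8 other probes ran from -0.29 to 0.04. Of 24 calcium handling and channel genes 17 were below 0, the median was -0.08, and 0 passed, against 1 higher and 2 lower unadjusted. Jph2, which holds the junction of surface and sarcoplasmic reticulum membranes, differed by -0.21 and Kcne1, a potassium channel subunit, by 0.48 (adjusted p = 0.32 and 0.47).

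The proteasome degrades ubiquitinated proteins, and of its 40 measured subunits 29 were above 0, the median was 0.04, and 0 passed in limma's test, against 2 higher and 1 lower at an unadjusted p below 0.05. Psmd11 differed by 0.15 and Psmd8 by -0.19. Muscle ubiquitin ligases were split, with 15 of 30 above 0 and a median of 0.00, and 1 lower at an unadjusted p below 0.05. Fbxl22, an F-box protein of the Z-disc, differed by -0.26 (adjusted p = 0.52) and Trim54, the ligase MuRF3, by 0.18 (adjusted p = 0.62). Autophagy and lysosome genes had a median of 0.01 over 31 members, with 0 past the threshold and 2 higher at an unadjusted p below 0.05: Gabarapl1, a vesicle protein of autophagy, at 0.27 and the mitophagy receptor Bnip3 at 0.16. Of 27 endoplasmic reticulum stress genes 0 passed and 1 in each direction had an unadjusted p below 0.05. These were Pdia3, a disulphide isomerase of the MHC class I loading complex, at -0.29 without overlap (SE 0.06, adjusted p = 0.10), and Herpud1, a degradation factor of the endoplasmic reticulum, at 0.39.

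Genes of energy metabolism leaned slightly higher in CHIP-/- sham hearts. Fatty acid oxidation, the main fuel pathway of adult heart, had 24 of 32 genes above 0 and a median of 0.07, the tricarboxylic acid cycle 15 of 19 and 0.05, and oxidative phosphorylation 48 of 55 and 0.05. Without wild-type replicate 4 the medians of fatty acid oxidation and oxidative phosphorylation were 0.02 and 0.01, with 33 of 55 genes of the latter above 0. Without CHIP-/- replicate 1 the oxidative phosphorylation median was 0.03, with 38 of 55 above 0, and without CHIP-/- replicate 3 the fatty acid oxidation median was 0.04. Of these genes 0 passed in limma's test, and at an unadjusted p below 0.05 there were 2, both in fatty acid oxidation. They were Fabp3, the heart fatty acid binding protein, at 0.20 with its spot saturated on 1 sham array and 0.08 in the heart channel alone, and Pdk4, a kinase that inhibits the pyruvate dehydrogenase complex, which read -0.11, -0.25, 0.44 and -0.87 in wild type and 0.43, 1.12, 1.16 and -0.62 in CHIP-/- hearts. Idh3g and Suclg2 of the cycle differed by 0.12 and 0.16, though a second Suclg2 probe gave -0.23, and the complex I subunits Ndufs1 and Ndufb5 by 0.14 and 0.10. CHIP has been tied to the energy sensor AMPK, and of 16 AMPK subunits and regulators 0 passed, 0 had an unadjusted p below 0.05, and the differences ran from -0.15 for Prkab1 to 0.08. Prkab2 differed by -0.11. PGC-1 coactivators and nuclear receptors had 17 of 21 below 0 with a median of -0.05, with Esrrg at -0.23 and Nr1d1 at -0.27. In glycolysis, where the median was -0.04 and 2 genes were higher and 3 lower at an unadjusted p below 0.05, Pfkfb1 differed by 0.38 and Pygb, a glycogen phosphorylase, by -0.18. Among 20 genes of branched-chain amino acid and ketone use the median was 0.01, with Acadsb at -0.23 and Pccb at -0.20. For Acadsb the reference signal was itself lower on the CHIP-/- slide, by 0.19 (adjusted p = 0.0011).

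Immediate early genes, which respond within minutes to stress and to handling, had the lowest median of the pathway groups, -0.25 over 20 members, of which 17 were below 0. In limma's test 0 passed the adjusted threshold, and 9 were lower and 0 higher at an unadjusted p below 0.05, where 5.18% of all features were lower and 2.86% higher. Phlda1 read 0.30, 0.76, 0.57 and 1.27 in wild type and 0.01, -0.15, -0.57 and 0.53 in CHIP-/- hearts, a difference of -0.77 (adjusted p = 0.10). Jun differed by -0.36 (adjusted p = 0.15) and the orphan receptor gene Nr4a1 by -0.78 (adjusted p = 0.39). The ranges overlapped for all 3. The count at an unadjusted p below 0.05 was 5 without CHIP-/- replicates 1 and 3.

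Oxidative stress genes leaned higher, with 23 of 34 above 0, a median of 0.05, 5 higher without overlap and 8 higher, 0 lower, at an unadjusted p below 0.05, though 0 passed limma's adjusted threshold. Of all features 2.22% were higher without overlap and 2.86% higher at that p. Gsta3, a glutathione transferase, read -1.46, -1.41, -1.33 and -1.72 in wild type and -1.22, -0.73, -0.91 and -0.94 in CHIP-/- hearts, a difference of 0.53 (adjusted p = 0.22), with 0.25 for a second probe. Sod1, the cytosolic superoxide dismutase, differed by 0.20 without overlap (adjusted p = 0.29). The count of 8 was 5 without the 3 arrays with high Myl7, 5 without CHIP-/- replicates 1 and 3, 4 without CHIP-/- replicate 2 and 4 without the 3 arrays with Y-linked transcripts.

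In the remaining groups 0 genes passed limma's threshold, and at an unadjusted p below 0.05 2.86% of all features were higher and 5.18% lower. FOXO, IGF and AKT signalling had a median of -0.04 over 28 genes, with 2 higher and 3 lower at an unadjusted p below 0.05, led by Rptor, the raptor subunit of mTORC1, at -0.30 without overlap, and Igfbp4 at -0.25. A second Igfbp4 probe gave -0.02. Genes of p53 and apoptosis had a median of -0.02 and 0 at an unadjusted p below 0.05, with Bcl2l11 at 0.22 and Bcl2 at -0.15, against -0.08 and 0.05 for other Bcl2 probes. Cell cycle genes had a median of -0.07 and 1 lower, with Ccnd1 at -0.19 and Tyms at -0.23. Glucocorticoid responsive genes were divided, 3 higher and 3 lower, from -0.49 for Fkbp5, a co-chaperone of the steroid receptor, to 0.56 for the metallothionein Mt2. A second Fkbp5 probe gave -0.13. Clock genes had 2 lower, Clock at -0.25, with 0.06 for a second probe, and Nr1d1 at -0.27. Cytosolic ribosomal proteins had 60 of 74 above 0 but a median of 0.04, with Rpl7a at 0.13, and mitochondrial ribosomal proteins a median of 0.02 over 77, with Mrpl15 at -0.20 and Mrps27 at -0.35.

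**Figure D4:**
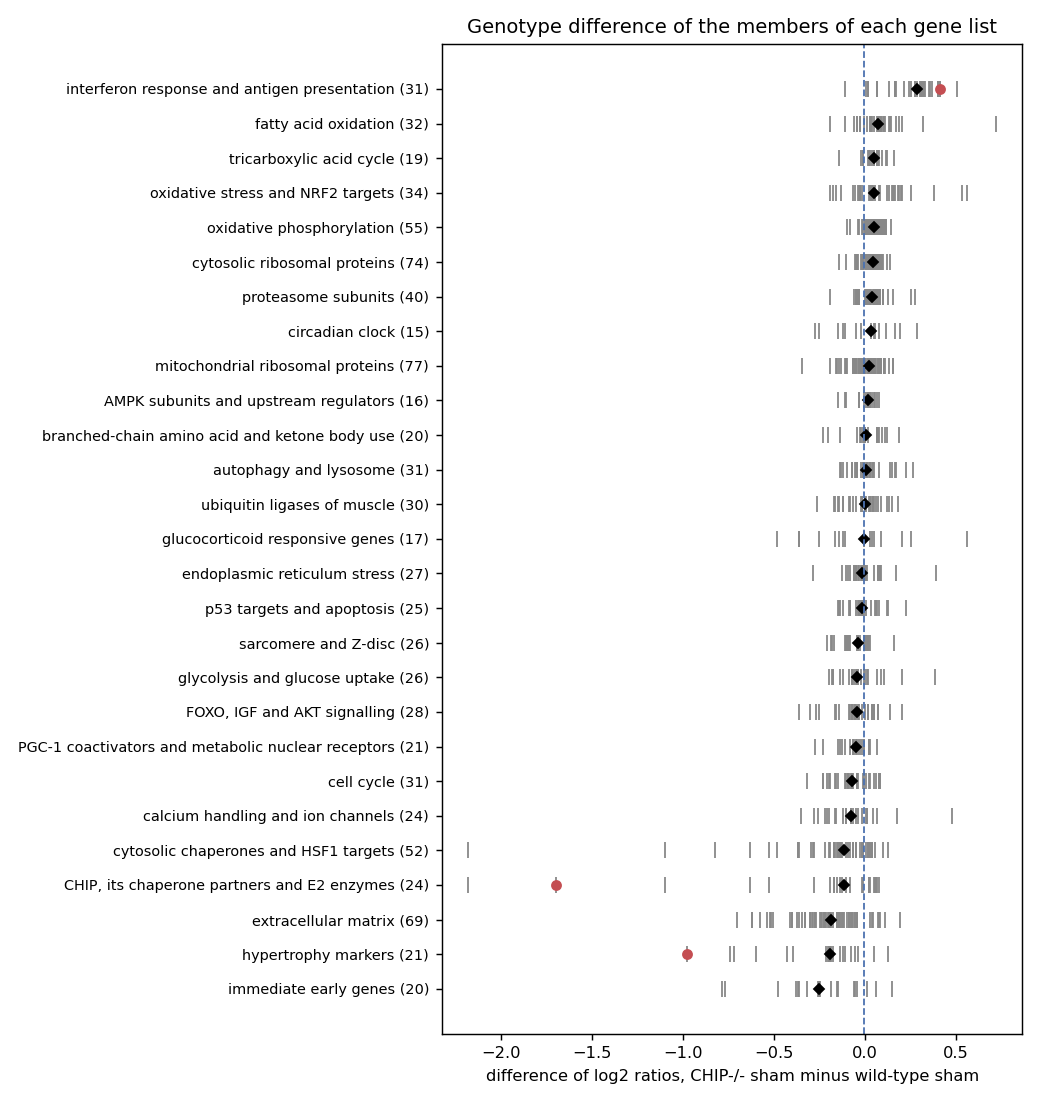
Difference of log2 ratios, CHIP-/- sham minus wild-type sham, for every measured member of 27 gene lists (ticks, number of members in brackets), with the list's median as a diamond, members past the threshold as red points, and the median of all features, -0.01, as a dashed line. Interferon and antigen presentation genes have the highest median, 0.29, and immediate early genes the lowest, -0.25.

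A few single genes outside these groups stood next in order of evidence and were picked after their values were seen. Alas1, the rate-limiting enzyme of heme synthesis, read 1.57, 1.60, 1.01 and 1.54 in wild type and 0.90, 0.30, 0.70 and 1.15 in CHIP-/- hearts, a difference of -0.67 (adjusted p = 0.099) with -0.44 for a second probe. Oaz2, an inhibitor of polyamine synthesis, differed by -0.23 with tight groups, at 0.26 to 0.31 in wild type and 0.04 to 0.09 in CHIP-/- hearts. Its other probes gave -0.18, -0.17 and 0.08. Fndc1, a fibronectin domain protein, differed by -0.73 and Rsph3a, a radial spoke protein, by -0.82. Irx1, a transcription factor of the ventricular septum and conduction system, differed by 0.58, and the linker histone H1f2 by 0.31. Each of these had an adjusted p of 0.099 or 0.10.

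Cardiomyocyte markers were high on all arrays, but the ventricular light chain Myl2 was not tested, and 3 arrays carried high atrial transcripts: Myl7 read 3.82, 1.89 and 2.22 on wild-type replicates 1 and 3 and CHIP-/- replicate 1, against -1.99 to -0.75 on the other 5. Cardiomyocyte markers averaged 2.78 to 2.92 on wild-type and 2.70 to 2.79 on CHIP-/- arrays, with Myh6, Myl3 and Actc1 differing by 0.00, -0.10 and -0.09. Across the 16 marker lists 0 genes passed limma's threshold, with 5 higher and 15 lower at an unadjusted p below 0.05, where 2.86% of all features were higher and 5.18% lower. The lists held 1 to 20 measured markers each. Of the lower ones, 4 were among 16 fibroblast markers and 3 among 20 macrophage and monocyte markers. Of the higher ones, 3 were among 17 endothelial markers. The signs of Myh6, Myl3, Actc1, Pdgfra, Kdr, Myh11, Adgre1 and many sparse markers changed under at least 1 alternative processing. The mean of the atrial markers ran from 0.07 to 1.39 between arrays, and Myl7, Myl4 and Sln differed by -1.25, -0.60 and -0.35, with SEs of 0.86, 0.39 and 0.20. Endothelial markers had a median of 0.00 over 17, and Pecam1, Cdh5 and Kdr differed by -0.07, -0.16 and 0.06, while Fabp4 differed by 0.46 (adjusted p = 0.11, no overlap over 7 arrays) and Ly6c1 by 0.28 (adjusted p = 0.16, no overlap). The endothelial median therefore lay at 0 beside the rise of Ly6a, and the part of endothelial cells in it was not tested. Smooth muscle genes Acta2, Tagln and Myh11 differed by -0.21, -0.11 and -0.12. Of the macrophage markers, Adgre1, Cd68 and Csf1r differed by -0.05, -0.25 and -0.12 and Cd163 by -0.27 (adjusted p = 0.38), and Cd68 was not well above background on any CHIP-/- array. The fibroblast and pericyte marker Cd248 differed by -0.33 without overlap (adjusted p = 0.15).

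Few blood and immune markers passed the filter. Of 16 lymphocyte markers, Ighm and Cd74 did, at -0.20 and -0.18, and the part of lymphocytes in the interferon values was not tested. The neutrophil gene S100a9 differed by 0.45 without overlap (adjusted p = 0.16), Mpo by -0.16 and Ngp by 0.09. Red cell genes Hba-a1, Hbb-bt and Alas2 differed by 0.02, 0.04 and 0.07. For adipocytes, Adipoq, Cfd and Plin1 differed by -0.16, -0.26 and -0.22. For skeletal muscle, Myh1, Myh2 and Myh4 differed by -0.09, 0.00 and 0.21. For nerve and glia, Mbp, S100b and Pmp22 differed by 0.10, -0.17 and -0.18 and the receptor Gfra3 by -0.48 without overlap (adjusted p = 0.16). The mesothelial genes Msln, Wt1 and Krt8 differed by 0.08, -0.04 and -0.08, the thymus list kept Cd1d1 at -0.04, and the lung and liver genes Sftpc, Alb and Apoa1 differed by -0.04, -0.12 and -0.06.

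The 8 animals after TAB, which share no array with the sham animals, show which of these differences were seen again. There the genotype difference passed the threshold for 1284 features, or 11.6%, with 577 (5.22%) higher and 707 (6.39%) lower in CHIP-/- hearts. Of the 246 features higher without overlap after sham, 45.1% were above 0 after TAB, where 47% of all features were, and of the 348 lower, 52.6% were below 0, where 53% were. Across all features, 48.8% had the same sign in both. Stub1 fell after TAB as well, by 1.34 (SE 0.10, adjusted p = 2.7e-08).

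The interferon and class I genes kept their direction. After TAB 26 of 31 were above 0, the median was 0.18, and 12 rose while 1, Ly6a, fell, and 9 of the 13 class I genes rose. Of all features 5.22% rose and 6.39% fell. H2-K1 rose by 0.54 (adjusted p = 0.0017), H2-D1 by 0.40 (adjusted p = 0.0071), B2m by 0.45 (adjusted p = 0.0081) and Ifit3 by 0.68 (adjusted p = 0.0013). The difference between the TAB and the sham value passed the threshold for 3 of the 31 genes, or 9.68%, where it did for 5.41% of all features.

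Matrix and respiratory genes differed between the operations, though this depended on which sham arrays were used. Matrix genes had a median of -0.19 after sham and 0.38 after TAB, where 37 of 69 rose and 1 fell, against 5.22% and 6.39% of all features. The difference between both was past the threshold for 36 of 69, or 52.2%, of which 35 were higher after TAB, where it was for 5.41% of all features. Oxidative phosphorylation genes had a median of 0.05 after sham and -0.31 after TAB, where 48 of 55 fell, against 6.39% of all features. The test of that difference passed for 24 of 55, or 43.6%, all lower after TAB. Fatty acid oxidation genes went from 0.07 to -0.34, with 15 of 32 past it. Neither Y-linked gene gave signal above background on the 8 TAB arrays, and Xist did on all 8, while 3 of the 8 sham arrays carried the Y-linked transcripts, so sex was not balanced between the operations. Without those 3 sham arrays the same test passed for 8 of 69 matrix genes (11.6%), 0 of 55 oxidative phosphorylation genes and 3 of 32 fatty acid oxidation genes, where it passed for 0.886% of all features, and the matrix median after sham was -0.07. For oxidative phosphorylation that count was also 10 without wild-type replicate 4, 12 without CHIP-/- replicate 1, 12 without CHIP-/- replicate 2, 6 without the 3 arrays with high Myl7 and 1 with median centring. For fatty acid oxidation it was 9 without wild-type replicate 4, 9 without the arrays with high Myl7 and 6 with median centring. The part of sex in these differences was not tested. The chaperone list had a median of -0.04 after TAB, where 2 of 52 members rose and 5 fell, against 5.22% and 6.39% of all features. Hspa1a differed by 0.26 (adjusted p = 0.84) and Dnajb1 by -0.02 (adjusted p = 0.98). For Nppb the genotype difference after TAB was -0.07 (adjusted p = 0.84), and it differed from the sham value by 0.90 (adjusted p = 0.024). Ly6a fell by 0.28 after TAB (adjusted p = 0.0071), a change of -0.70 from the sham value (adjusted p = 0.00039). Both Nppb and Ly6a were named for their sham difference, which this test subtracts, so a change of opposite sign was favoured in advance.

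**Figure D5:**
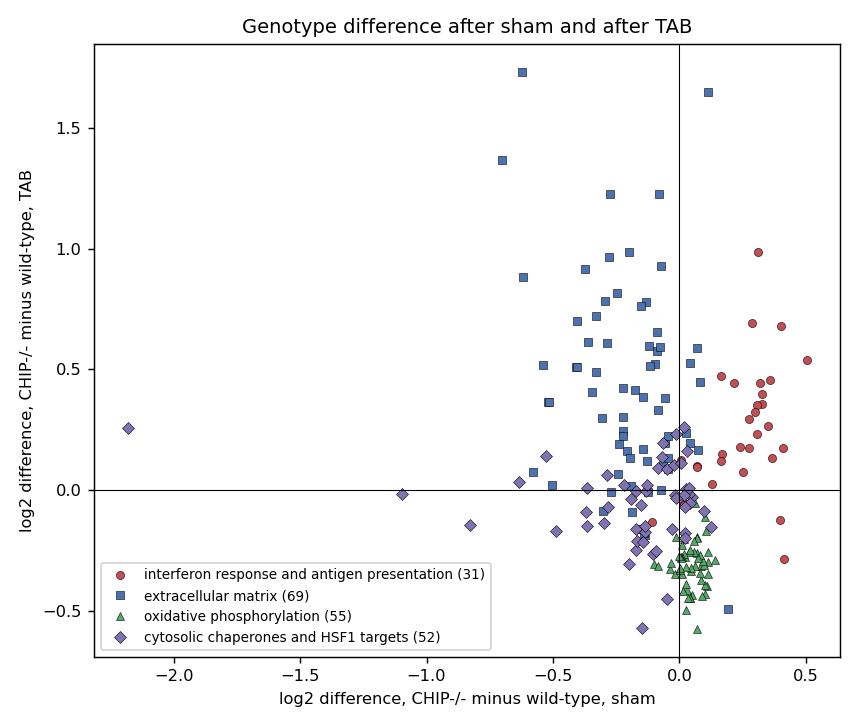
Genotype difference, CHIP-/- minus wild-type, after sham (horizontal) and after TAB (vertical) on the log2 scale, with 1 point per measured gene of 4 lists and the number of genes in brackets. Interferon genes lie mostly above 0 on both axes, matrix genes below 0 after sham and above 0 after TAB, and all 55 oxidative phosphorylation genes lie below 0 after TAB.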

How the data were processed

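Ventricle RNA (Cy5) and a whole neonatal mouse reference (Cy3) were measured on 16 Agilent arrays. Per the file headers, the scans were read by Feature Extraction (version 9.1.3.1). Deposited files give linear intensity as mean signal and local background, processed intensity, and a log10 ratio, and the deposited series table gives log2 ratios centred per probe. Only the mean and background intensities entered the main result. They were corrected with normexp (offset 50) and loess, control and outlier-marked spots having weight 0, in limma 3.58.1 and R 4.3.3, with data.table (version 1.17.8). A probe was kept if its heart signal was well above background on 4 or more of the 16 arrays and it had a value on 15 or more, and the brightest probe stood for a gene: 11058 features, 9962 with a symbol. No missing value was filled. A single linear model with a mean per group and an intensity trend was fitted to all 16 arrays, the adjusted p being Benjamini-Hochberg's over all features. The fit was tested on simulated data. Names came from the files and RefSeq (GRCm38.p6); 7980 tested features matched a RefSeq promoter by symbol.

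The gene lists, genes and tests were chosen with earlier results of these data known, so they are no independent support. Genes named by rule are Stub1; up to 12 features per direction of largest change past the threshold, without overlap and well above background in the higher group; per pathway list, up to 5 members past the threshold or else the 2 of smallest p; all measured CHIP partners; the first 3 measured markers of each cell list; and Myl7, Xist, Ddx3y and Eif2s3y. The other heat shock, interferon, MHC class I, matrix, hypertrophy and marker genes, and the single genes, were picked after their values were seen. The interferon-stimulated response element was added to the motifs after the files were seen. The number of arrays limits the precision, and the labels do not say whether replicates shared litters. P-values then measure the spread between these samples only. A few genes that these rules name are not reported here.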

Additional observations from a re-analysis of the deposited data

Results flagged for a closer look

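Among the genes examined singly, 302 groups of 4 arrays were tested for 1 array far from the other 3 with Dixon's ratio, of which chance marks about 1 in 20, and 12 were marked. The marked values included Ly6a at 2.29 on CHIP-/- sham replicate 3 (2.21 on the other 3), H2-K1 at 0.39 on wild-type sham replicate 4 (0.02 to 0.06 on the other 3), H2-Q10 at -0.67 on wild-type sham replicate 4 (-0.87 to -0.84 on the other 3) and Postn at -1.75 on wild-type sham replicate 4 (-3.52 to -3.43 on the other 3). Further ones were Esrrg at 1.10 on CHIP-/- sham replicate 4 (0.89 to 0.91 on the other 3), Nr1d1 at 0.64 on CHIP-/- sham replicate 3 (0.29 to 0.32 on the other 3), Gabarapl1 at 0.20 on wild-type sham replicate 3 (0.10 on the other 3) and Ttn at 1.34 on CHIP-/- sham replicate 3 (1.14 to 1.16 on the other 3). The rest were Alas1 at 1.01 on wild-type sham replicate 3 (1.54 to 1.60 on the other 3), Myl4 at -0.99 on CHIP-/- sham replicate 1 (-2.76 to -2.52 on the other 3), Adipoq at -3.21 on wild-type sham replicate 4 (-2.98 to -2.97 on the other 3) and Xist at -3.20 on wild-type sham replicate 4 (-0.40 to -0.27 on the other 3). 

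The genotype difference after TAB was set against that after sham for the same genes. In limma's interaction test, adjusted over all features, 31 of the 155 genes passed, where 5.41% of all features did. Many of the 155 were named for their sham difference, which the interaction subtracts, so an opposite sign was favoured in advance. Each of the 31 had that opposite sign, and the list is no independent support. Without the 3 sham arrays with Y-linked transcripts, 98 of all features passed in place of 598. The values are the TAB difference minus the sham difference on the log2 scale. It was higher after TAB for Nppb (0.90, adjusted p = 0.024), Hsp90aa1 (0.67, adjusted p = 0.035), Ube2e1 (0.45, adjusted p = 0.0091), Nppa (1.14, adjusted p = 0.047), Nmrk2 (1.52, adjusted p = 0.017) and Serpinh1 (0.88, adjusted p = 0.0015). The same direction was seen for Col15a1 (0.88, adjusted p = 0.016), Col3a1 (2.07, adjusted p = 0.00068), Postn (2.36, adjusted p = 0.0055), Fndc1 (1.78, adjusted p = 0.00012), Pdia3 (0.42, adjusted p = 0.0073) and Phlda1 (1.54, adjusted p = 0.00097). It was also higher for Prkab2 (0.63, adjusted p = 0.0055), Lum (0.91, adjusted p = 0.0096), Oaz2 (0.26, adjusted p = 0.028), Rsph3a (1.12, adjusted p = 0.0086), Adgre1 (0.73, adjusted p = 0.005) and Csf1r (0.51, adjusted p = 0.0043). It was lower after TAB for Ly6a (-0.70, adjusted p = 0.00039), Ifitm1 (-0.52, adjusted p = 0.043), Jak1 (-0.34, adjusted p = 0.013), Herpud1 (-1.05, adjusted p = 0.0047), Fabp3 (-0.45, adjusted p = 0.016) and Pdk4 (-2.35, adjusted p = 0.0044). It was also lower for Idh3g (-0.37, adjusted p = 0.018), Ndufs1 (-0.43, adjusted p = 0.022), Gabarapl1 (-0.49, adjusted p = 0.0084), Fabp4 (-0.80, adjusted p = 0.0027), Ly6c1 (-0.68, adjusted p = 0.00068) and Kdr (-0.54, adjusted p = 0.013). It was also lower for Myh4 (-0.64, adjusted p = 0.016).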

How the results depend on the processing

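The count of 3 features past the threshold after sham was most open to the processing. It was 1 with Feature Extraction's processed signals, 1 in the deposited series table and 1 without the 2 wild-type arrays with high Hspa1a (chosen after seeing the data), 7 without the 3 arrays with Y-linked transcripts, 10 in the heart channel alone, 13 without the 3 arrays with high Myl7, 21 with median centring (8 higher, 13 lower), 41 with array weights and 42 with the 8 sham arrays only. Leaving out 1 array gave 1 to 12. Stub1 passed in all of these, at -1.73 to -1.68 with 1 array left out. The count after TAB, 1284, was 439 with median centring and 1205 to 1309 with 1 sham array left out. The interaction count, 598, was 176 with median centring, 393 with no filter on dim probes, 385 with no intensity trend, 98 without the arrays with Y-linked transcripts and 343 to 593 with 1 array left out. Nppb kept its sign, with an adjusted p of 6.3e-05 to 0.33 over 26 alternatives and the call in 14, and Ly6a kept the call in 15. Of 155 genes examined singly, 120 kept their sign in all alternatives run. The cause of these shifts was not tested.

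With the replicate number as a block, 4 features passed after sham. After each group's mean was subtracted from every feature, the deviations of same-numbered sham arrays of the genotypes correlated at 0.10, 0.03, 0.10 and 0.12. Among these deviations, each wild-type sample correlated best with the CHIP-/- sample of its own number, a hint of pairing from the data. Not every correlation was above 0.1 and the labels name no shared litter or day, so the numbers were not taken as pairs. A fit with the slide as a block could not be made, because each slide holds 1 group.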
